A study of Mus musculus with 8 samples.

Results

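The Ifit genes, viperin (Rsad2) and Cmpk2 are interferon-stimulated antiviral genes, and 6 of them were described here out of 49492 genes in the deposited table: Ifit1, Ifit2, Ifit3, Ifit3b, Rsad2 and Cmpk2. They were chosen by name, as antiviral genes whose values in these same libraries had already been seen to part the groups, so their levels and differences are given as a description and carry no p-value. RNA-seq was performed on 8 libraries of mouse embryonic fibroblasts (MEFs), connective tissue cells cultured from embryos and made permanent by repeated passage. All cells came from MEFs with a floxed Pontin gene (Pontin f/f) in which the endogenous gene was deleted by Cre, and all carried a lentiviral copy of Flag-tagged Pontin. This copy was the wild-type form in WT MEFs, and in RA MEFs a form in which a pair of arginines that can be methylated was replaced by alanine. Each line was kept in normal medium or in medium without glucose (glucose starvation), with 2 replicates in each of the 4 groups. The duration of the starvation of these samples is not given in the sources used here. Because each form of Pontin is carried by its own line, the line and the form of Pontin cannot be told apart, and nothing states that the replicates are separate cultures, so the spread between them may be technical.

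Type I interferons bound to their receptor activate the kinases Jak1 and Tyk2, which phosphorylate transcription factors that enter the nucleus and bind the interferon-stimulated response element (ISRE) before the genes they induce, and Irf3 and Irf7 can induce some of the same genes directly after viral nucleic acid is sensed. The Ifit proteins are built of tetratricopeptide repeats. Ifit1 binds RNA whose cap lacks 2′-O-methylation and blocks its translation, Ifit2 and Ifit3 act with it in complexes, and Ifit3b is a near copy of Ifit3 in the mouse. Viperin is a radical S-adenosylmethionine enzyme with an iron-sulfur cluster that turns CTP into a chain-terminating nucleotide, and Cmpk2 is a mitochondrial nucleotide kinase that can supply CTP and lies beside Rsad2 in the genome. Fibroblasts are a classic cell type for the study of this response.

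In the GENCODE M21 annotation of GRCm38, the Ifit genes lie together on the plus strand of chromosome 19, Ifit2 at chr19:34550694-34576419, Ifit3 at chr19:34583531-34588731, Ifit3b at chr19:34607970-34613401 and Ifit1 at chr19:34640871-34650009. Ifit1bl1 and Ifit1bl2, which belong to the family but not to the 6 genes, lie between them on the minus strand. Rsad2, at chr12:26442746-26456452 on the minus strand, and Cmpk2, at chr12:26469204-26479837 on the plus strand, are transcribed away from each other from start sites 12752 bases apart. None of the 6 genes shared exon bases with another annotated gene. The deposited values come from reads mapped to the earlier build mm9, and no coordinate of that build was used.

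The stretches of 200 bases before the start site are shown for the 4 genes in which the ISRE core was found, to set the copies side by side. They are RefSeq sequence of GRCm38.p6, 5′ to 3′ on the strand of the gene, for Ifit1 at chr19:34640689-34640888, for Ifit3 at chr19:34583329-34583528, for Ifit3b at chr19:34607757-34607956 and for Rsad2 at chr12:26456453-26456652 on the minus strand. Capitals mark each match to the ISRE core, searched as GAAANNGAAA and on the other strand as TTTCNNTTTC.
Ifit1: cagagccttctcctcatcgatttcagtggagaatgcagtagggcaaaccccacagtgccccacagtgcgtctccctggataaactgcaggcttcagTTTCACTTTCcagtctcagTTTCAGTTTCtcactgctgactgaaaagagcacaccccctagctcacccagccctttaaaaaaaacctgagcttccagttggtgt
Ifit3: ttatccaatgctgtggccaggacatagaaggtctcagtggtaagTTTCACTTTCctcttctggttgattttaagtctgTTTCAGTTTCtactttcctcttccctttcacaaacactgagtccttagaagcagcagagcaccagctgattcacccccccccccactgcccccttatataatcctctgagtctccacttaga
Ifit3b: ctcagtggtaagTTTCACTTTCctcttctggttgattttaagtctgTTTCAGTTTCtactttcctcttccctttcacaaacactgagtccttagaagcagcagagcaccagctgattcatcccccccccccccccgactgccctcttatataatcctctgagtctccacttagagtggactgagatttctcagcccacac
Rsad2: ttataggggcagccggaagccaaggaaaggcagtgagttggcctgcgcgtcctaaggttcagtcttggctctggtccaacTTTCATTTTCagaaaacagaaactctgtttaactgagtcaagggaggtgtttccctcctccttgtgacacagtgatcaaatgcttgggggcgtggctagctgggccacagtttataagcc

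All 6 genes had a RefSeq start-site window, which ran from 250 bases before to 50 bases after the start site. Ifit1 held a pair of ISRE cores that began 104 and 85 bases before its start site. The pairs of Ifit3 and Ifit3b began 156 and 122, and 188 and 154, bases before their start sites, and the first and second copies have the same letters in these 3 genes. Aligned along 260 bases, the windows of Ifit3 and Ifit3b were identical at 258, so their matches are not independent. Rsad2 held 1 core, 120 bases before its start site. The window of Cmpk2 and both windows of Ifit2 held none, which says only that these letters are not in these windows. The core was therefore found in 4 of 6 genes, against 3.99% of the 27025 genes with a window, and 3 of the 6 held at least 2 copies, against 0.266%. The FOXO motif GTAAACA was searched on both strands because the study concerns FOXO3a, a transcription factor that Pontin assists. It was present in 1 of 6 windows, that of Rsad2, 212 bases before the start site, and in 4.05% of all genes. TATAAA, read on both strands, was in 1 of 6, again Rsad2, and in 15.7% of all genes. None of these matches overlapped another in the windows of the 6 genes. A match describes the sequence and does not show binding.

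**Figure D1:**
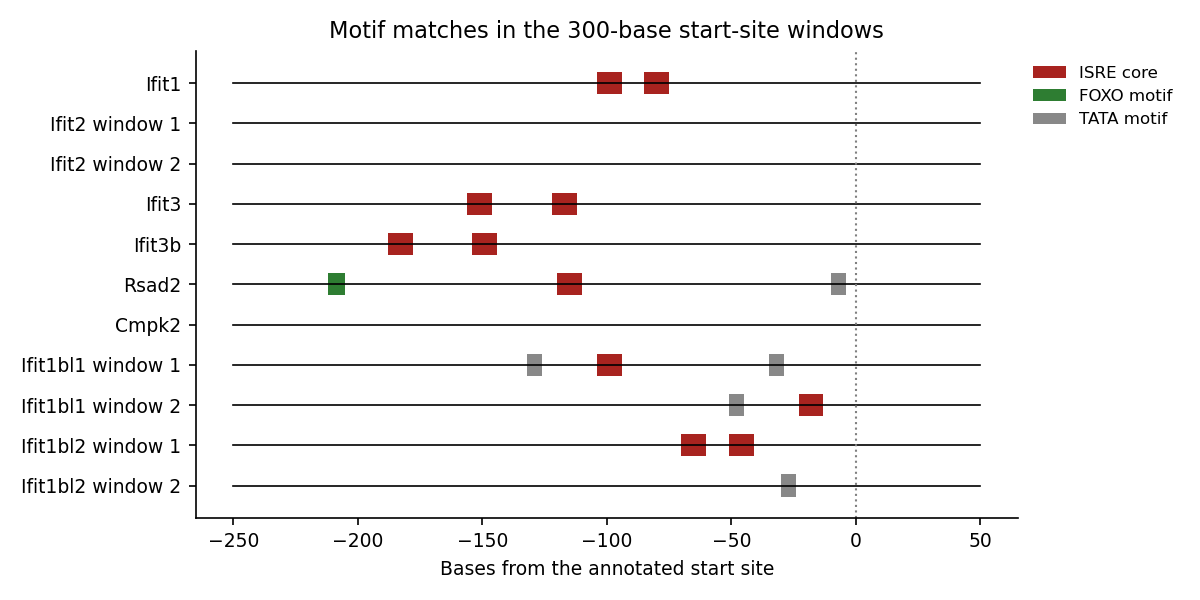
Matches to the ISRE core (red), the FOXO motif (green) and the TATA motif (grey) in the windows of the 6 genes and of Ifit1bl1 and Ifit1bl2. The x axis gives bases from the annotated start site, marked by the dotted line, and each row is one window. Ifit1, Ifit3 and Ifit3b each hold 2 ISRE cores, Rsad2 holds 1, and Ifit2 and Cmpk2 hold none.

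The deposited values gave back totals of 43205841 to 56363034 reads per sample. All levels are normalised read counts in CPM, the reads of a gene over the library size after scaling by the authors, and 3 reads were worth between 0.0548 and 0.069 CPM. Ruvbl1, the gene of Pontin, was at 28.4 and 27.6 in WT and 36.8 and 32.05 in RA in normal medium, and at 27.9 and 28.4 in WT and 45.0 and 42.9 in RA under starvation. These reads do not tell the WT from the RA form, so they do not check the genotype. Of 10 fibroblast markers, 9 reached 1 CPM in 2 or more samples. Their summed level was 9918 to 10246 in normal medium in both lines, 5313 to 5406 in starved WT and 7042 to 7059 in starved RA. The myeloid markers summed to between 21.0 and 26.2, with 3 of 8 at or above 1 in 2 samples. Csf1r, the largest part, was at 10.4 and 11.3 in WT and 13.7 and 14.3 in RA in normal medium. Under starvation Csf1r was at 19.2 and 20.1 in WT and 18.7 and 18.6 in RA. Cd14 reached 7.72 and Cd68 reached 4.51. Ptprc, the marker of all leukocytes, was at 0 in 7 of the 8 samples. The lymphoid markers summed to at most 1.53, with 5 of 7 at 0 throughout. The endothelial and epithelial markers summed to at most 6.60 and 3.68. The list for plasmacytoid dendritic cells, the main producers of interferon, moved with the 6 genes, from 417 to 420 in WT and 709 to 724 in RA in normal medium, to 326 to 328 in starved WT and 1153 to 1161 in starved RA. Its defining gene Siglech was at 0 in all samples, and 3 of its 6 genes reached 1 in 2 samples. Bst2, which interferon itself induces, was the largest single part, at 207 and 212 in WT and 503 and 523 in RA in normal medium, and at 160.2 and 159.1 in starved WT and 984 and 969.9 in starved RA. Without Bst2 and Tcf4 it was 124 to 126 in WT and 122 to 128 in RA in normal medium, and 87.3 to 88.1 and 80.9 to 84.7 under starvation, nearly all of it Ccr9. The part of these marker levels in the results was not tested.

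In WT MEFs all 6 genes were lower under glucose starvation than in normal medium, in RA MEFs 5 of them were higher by 1.34-fold to 1.99-fold, and RA stood above WT in either medium. For Ifit2 the media differed in RA by a log2 difference of only 0.09 (SE 0.047). The order of the groups was the same for each gene, with starved WT lowest, then WT in normal medium, RA in normal medium and starved RA, and no pair of neighbouring groups overlapped for any gene. Ifit1, Ifit3, Ifit3b, Rsad2 and Cmpk2 lay in starved WT at 2.85% to 3.97% of their level in normal medium, while Ifit2 kept 38.8%. These patterns are what the genes were chosen for.

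Ifit1, the sensor of caps without 2′-O-methylation, was at 96.8 and 95.6 in WT in normal medium, and starvation of WT left 3.48 and 3.29. In RA it was at 270.0 and 277 in normal medium and at 370.4 and 366 under starvation. Starved RA thus stood highest and starved WT lowest, with each pair of replicates close together. The level was 109-fold higher in starved RA than in starved WT and 2.85-fold higher in RA than in WT in normal medium. On the log2(value + 1) scale, which understates the change of low values, these differences were 6.40 and 1.499 (SE 0.042 for each).

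Ifit2, which joins Ifit1 and Ifit3 in complexes, was at 56.3 and 54.9 in WT in normal medium, and starvation of WT left 21.4 and 21.8. In RA it was at 69.1 and 66.8 in normal medium and at 73.3 and 71.6 under starvation. The RA samples lay within a narrow band, and the samples that stood apart were those of starved WT. Starved RA exceeded starved WT 3.36-fold, and RA exceeded WT 1.22-fold in normal medium. Ifit2 therefore had the smallest difference of the 6 genes in every comparison, with log2 differences of 1.70 and 0.28 (SE 0.047).

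Ifit3, the most abundant of the 6 genes in RA, was at 80.7 and 84.8 in WT in normal medium, while the starved WT samples held 3.23 and 3.34. In RA it was at 334 and 329.8 in normal medium and at 659 and 665 under starvation. It was thus the gene with the largest rise in starved RA, 1.99-fold over RA in normal medium. The level in starved RA was 201-fold that in starved WT, and RA was 4.01-fold higher in normal medium. The log2 differences were 7.27 and 1.99 (SE 0.041).

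Ifit3b, the near copy of Ifit3, was at 42.0 and 46.0 in WT in normal medium, and the starved WT samples held 1.17 and 1.46, from 56 and 80 reads. In RA it was at 178 and 180.3 in normal medium and at 295 and 294 under starvation. The groups stood in the order seen for Ifit3. Starved RA was 224-fold above starved WT, and RA was 4.07-fold above WT in normal medium, with log2 differences of 7.0 and 2.0 (SE 0.060). Of the windows of 100 bases in the annotated transcripts of Ifit3, 31.7% occur unchanged in those of Ifit3b, and of the windows of Ifit3b 27.4% occur in Ifit3. How reads that match both were counted is not stated, so the split between these genes is uncertain.

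Rsad2, which encodes viperin, was at 26.0 and 26.3 in WT in normal medium, while starvation of WT left 1.38 and 0.694, from 66 and 38 reads. In RA it was at 85.5 and 79.3 in normal medium and at 159.8 and 162 under starvation. The starved WT replicates of this gene were the farthest apart of the 6 genes in proportion to their level, which is also seen in the largest SE of the 6. Starved RA stood 155-fold above starved WT and RA stood 3.15-fold above WT in normal medium. The log2 differences were 6.33 and 1.62 (SE 0.10), and the first was 6.58 without WT glucose starvation replicate 1 and 6.09 without replicate 2.

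Cmpk2, the neighbour of Rsad2 and a nucleotide kinase of mitochondria, was at 18.4 and 19.95 in WT in normal medium, and the starved WT samples held 0.545 and 0.548, from 26 and 30 reads. In RA it was at 65.5 and 66.3 in normal medium and at 97.6 and 105 under starvation. It was the lowest of the 6 genes by value in starved WT. Starved RA was 185-fold above starved WT and RA was 3.44-fold above WT in normal medium, with log2 differences of 6.05 and 1.73 (SE 0.070).

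**Figure D2:**
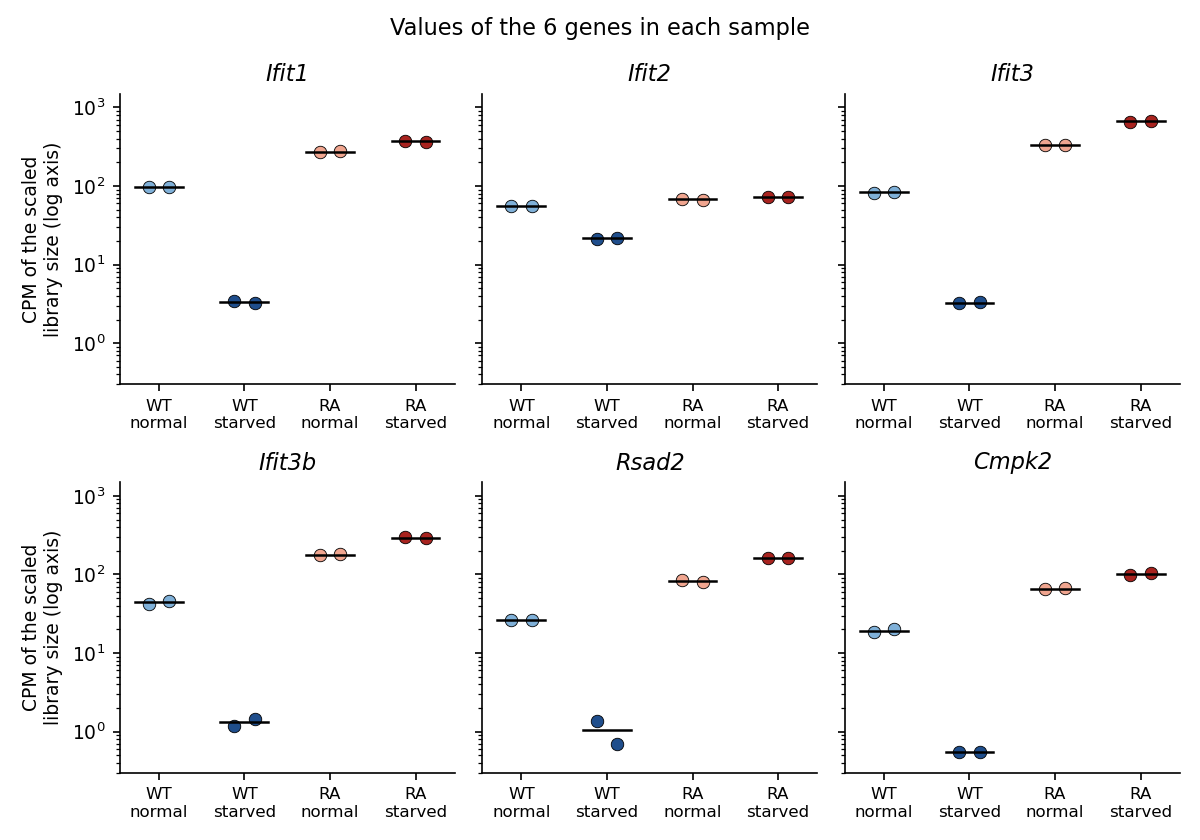
Normalised read counts (CPM of the scaled library size, log axis) of the 6 genes in each of the 8 samples. Points are samples and horizontal lines are group means, with 2 samples per group. Starved WT is lowest for each gene, and the fall is 2.58-fold for Ifit2 and between 25.2-fold and 35.1-fold for the other 5 genes.

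Against all 16232 genes that passed the filter, which asked for 1 CPM in 2 or more samples, Ifit3, Ifit3b, Ifit1 and Rsad2 ranked 1, 2, 3 and 4 by the log2 difference between RA and WT under starvation. Cmpk2 ranked 6 and Ifit2 ranked 312. All 6 passed the filter, although Cmpk2 and 1 of the Rsad2 samples lay under it in starved WT, and the ranks restate the choice of the genes and do not support it. The order of the highest depends on the scale, since Ifit3b (7.71) stood above Ifit3 (7.61) with a pseudocount of 0.1. Over all genes tested, 30.8% were called higher and 32.1% lower in starved RA than in starved WT (limma, Benjamini-Hochberg adjusted p under 0.05), and in normal medium 6.68% were called higher and 2.95% lower. In normal medium 69.4% of the calls were higher in RA, a share that was 40.4% with scaling to the column total and 52.8% with quantile normalization, while the log2 differences of the 6 genes kept their sign under both.

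The fall in starved WT was 28.4-fold for Ifit1, 25.2-fold for Ifit3, 33.4-fold for Ifit3b, 25.2-fold for Rsad2, 35.1-fold for Cmpk2 and 2.58-fold for Ifit2. On the log2 scale the differences were -4.47 for Ifit1, -4.29 for Ifit3, -4.28 for Ifit3b, -3.76 for Rsad2, -3.70 for Cmpk2 and -1.33 for Ifit2. The same comparison called 39.3% of all genes higher and 39.2% lower. In RA the rise with starvation was far smaller than the fall in WT. It was 1.99-fold for Ifit3, 1.95-fold for Rsad2, 1.65-fold for Ifit3b, 1.54-fold for Cmpk2, 1.34-fold for Ifit1 and 1.07-fold for Ifit2, where 35% of all genes were called higher and 33.7% lower. Less RNA per cell and fewer cells with the RNA cannot be told apart in these bulk samples.

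**Figure D3:**
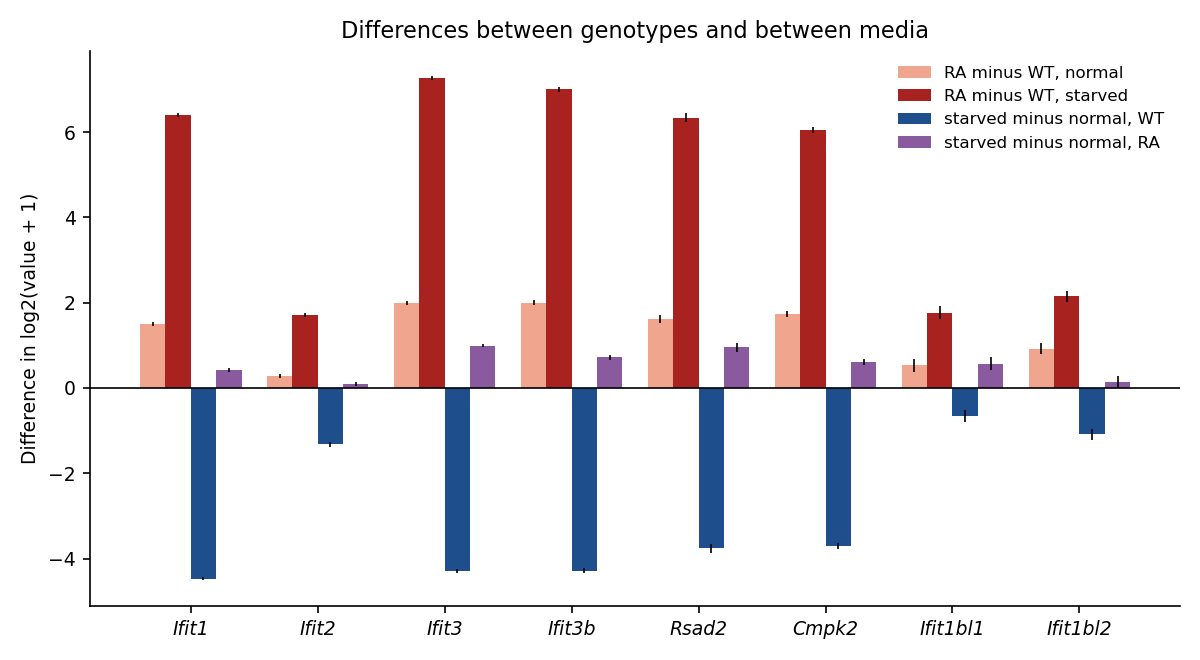
Differences in log2(value + 1) of the 6 genes and of Ifit1bl1 and Ifit1bl2 for RA minus WT in normal medium, RA minus WT under starvation, and starved minus normal medium in WT and in RA. Bars are the fitted differences over 2 samples per group and error bars are the SE. For RA minus WT under starvation the bars of Ifit1, Ifit3, Ifit3b, Rsad2 and Cmpk2 lie between 6.05 and 7.27, and that of Ifit2 is at 1.70.

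The response of RA less the response of WT, the interaction of genotype and medium, was 5.28 for Ifit3, 5.0 for Ifit3b, 4.90 for Ifit1, 4.72 for Rsad2, 4.32 for Cmpk2 and 1.42 for Ifit2 on the log2 scale. The starvation response was negative in WT and positive in RA for each of the 6 genes, although for Ifit2 in RA it was only 0.09 (SE 0.047). Over all genes the interaction was called higher in 24.5% and lower in 26.1%.

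Levels were also compared between the genes per kilobase of annotated exons. In starved RA, Ifit3 was at 379 CPM per kilobase, ahead of Ifit3b at 147, Ifit1 at 139, Rsad2 at 37.1, Cmpk2 at 24.3 and Ifit2 at 18.4. In starved WT the order was different. Ifit2, at 5.49, stood highest there, followed by Ifit3 at 1.88, Ifit1 at 1.27, Ifit3b at 0.659, Rsad2 at 0.240 and Cmpk2 at 0.131.

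This change of order was seen in the ratios of the values within each sample. Ifit2 stood at 0.70 and 0.65 of Ifit3 in WT in normal medium, at 6.62 and 6.52 in starved WT, at 0.21 and 0.20 in RA in normal medium and at 0.11 in both starved RA samples. The ratio of Ifit3b to Ifit3 moved far less, from 0.52 and 0.54 in WT and 0.53 and 0.55 in RA in normal medium to 0.36 and 0.44 in starved WT and 0.45 and 0.44 in starved RA. Ifit1 exceeded Ifit3 in WT in normal medium, with ratios of 1.199 and 1.13, stood at 1.08 and 0.98 of it in starved WT, and lay below it in RA, at 0.81 and 0.84 in normal medium and 0.56 and 0.55 under starvation. Cmpk2 lay below Rsad2 in all 8 samples, with ratios between 0.39 and 0.84.

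As a description, the profiles of log2(value + 1) over the 8 samples correlated between each pair of the 6 genes with Pearson r from 0.980 to 0.9998 and a median of 0.996 over 15 pairs. The lowest r was that of Ifit2 with Rsad2, and the 8 points are 4 groups of 2 samples that share their medium and line. Of 16207 other genes, 82 had an r over 0.99 with the mean profile of the 6 genes. The 10 highest were Serpinb1a, Ifi203, Usp18, Art3, Trim34a, Ifi47, Cxcl10, Trim30a, Gm44148 and Olfr56, with r between 0.9986 and 0.9994. Several of these overlap each other. Art3 shares 133 exon bases with Cxcl10 and Gm44148 shares 124 with Usp18, both on opposite strands. Reads from these bases cannot be told apart where the counting did not use strand. Olfr56 shares 111 with Ifi47 on the same strand, where strand cannot separate the reads. The shared bases are 39.2% of the exons of Gm44148 and between 2.45% and 5.91% of those of the others. Art3 and Cxcl10 still had nearly equal means, at 55.1 and 53.1 in WT in normal medium and 5.84 and 5.63 in starved WT. In RA they were at 139.4 and 135.2 in normal medium and at 217.2 and 210.6 under starvation. Gm44148 kept close to the same share of Usp18, from 6.76 and 9.04 in starved WT to 218.7 and 287.7 in starved RA. Whether the same reads were counted for both genes of a pair was not tested, so these pairs may not be separate genes in this ranking. The 3 genes most like Ifit1 were Ddx58, Usp18 and Gm44148, and those most like Ifit3 were Olfr56, Trim30a and Parp12. For Ifit3b they were Serpinb1a, Gm4951 and Trim12c, for Rsad2 Sp100, Stat2 and Tdrd7, and for Cmpk2 Serpinb1a, Gm4951 and Art3. For Ifit2 they were Mndal, Tns1 and Tinagl1, with r from 0.9981 to 0.9983.

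The 2 family members outside the chosen set were tested in the fit over all genes. Ifit1bl1 was at 1.02 and 1.13 in WT in normal medium, 0.251 and 0.384 once WT was starved, 1.59 and 2.50 in RA in normal medium, and 3.70 and 3.22 in starved RA. Ifit1bl2 was at 1.91 and 1.43 in WT in normal medium, 0.210 and 0.292 once WT was starved, 4.09 and 3.99 in RA in normal medium, and 4.27 and 4.83 in starved RA. Both were far less abundant than the 6 genes in RA and in WT in normal medium, and in each the starved WT samples were lowest. Under starvation RA exceeded WT with log2 differences of 1.76 (SE 0.15, limma adjusted p = 2.92e-08) for Ifit1bl1 and 2.15 (SE 0.13, limma adjusted p = 4.04e-10) for Ifit1bl2. By value starved RA stood 10.9-fold and 18.1-fold above starved WT, since the log2(value + 1) scale understates the change of low values. The starved WT samples held only 12 and 21 reads of Ifit1bl1 and 10 and 16 of Ifit1bl2. The interaction was 1.22 (SE 0.21, limma adjusted p = 0.000163) and 1.23 (SE 0.19, limma adjusted p = 4.29e-05). In normal medium Ifit1bl1 was called higher in RA by 0.54 (limma adjusted p = 0.0350), a call that was lost under 7 alternatives. Ifit1 and Ifit1bl2 start head to head and their windows share 245 bases, the ISRE cores among them, and 3.29% of the windows of 100 bases of Ifit1 transcripts occur in those of Ifit1bl2.

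Of the 3 nearest protein-coding genes in the table on each side of the Ifit cluster and of the Rsad2 and Cmpk2 pair, 9 of 12 passed the filter. In starved RA against starved WT, 5 of 9 were called higher and 3 lower, with log2 differences from -1.10 to 1.47, where 30.8% of all genes were called higher and 32.1% lower. The nearest tested genes were Lipa, a lysosomal acid lipase 23.2 kb from Ifit2, at -0.11 (limma adjusted p = 0.0434), and Rnf144a, a ubiquitin ligase 27.5 kb from Rsad2, at 0.79 (limma adjusted p = 0.000152). The highest was Fas, a death receptor 222.9 kb from the Ifit cluster. The lowest was Id2, an inhibitor of helix-loop-helix transcription factors, 1345.6 kb from the Rsad2 and Cmpk2 pair. Sox11 and Kidins220 lay 854.4 and 1379.6 kb from that pair, so the tested genes do not all describe the nearby chromosome. With normal medium, 0 of 9 were called higher and 1, Id2, was called lower. In the response to starvation 3 were called higher and 4 lower in WT, and 4 higher and 5 lower in RA. The interaction was called higher in 4 of 9 and lower in 2, against 24.5% and 26.1% of all genes.

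**Figure D4:**
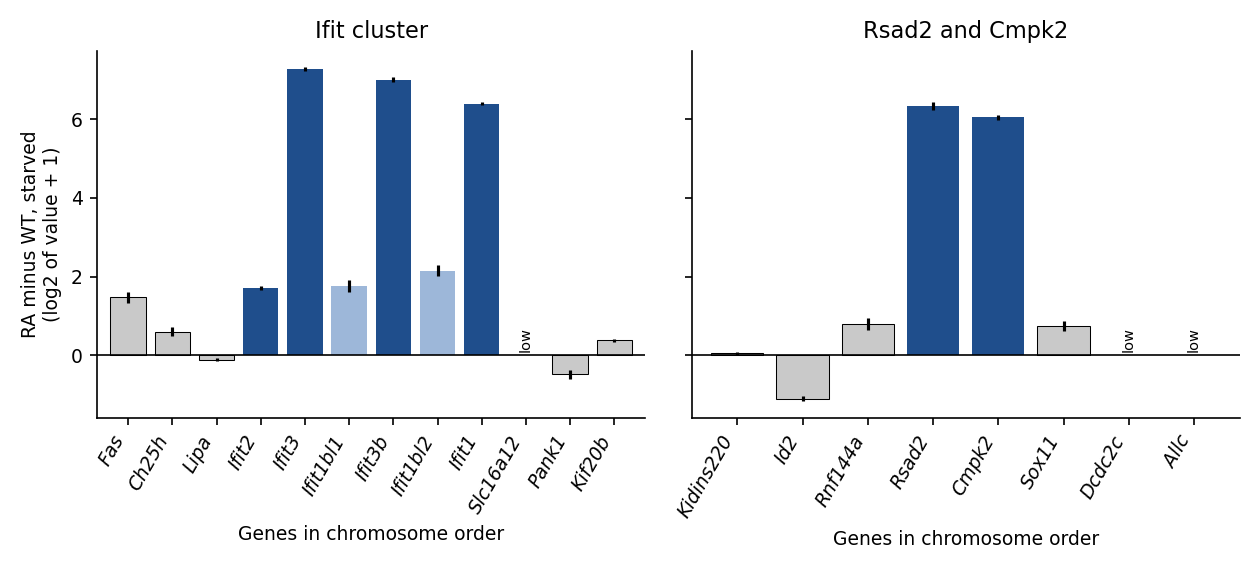
Difference of RA minus WT under starvation, in log2(value + 1), for the genes of both loci in chromosome order. Dark blue bars are the 6 genes, light blue bars are Ifit1bl1 and Ifit1bl2, grey bars are the 3 nearest genes on each side, and "low" marks genes under the filter. Error bars are the SE. The grey bars lie between -1.10 and 1.47 and belong to genes up to 1379.6 kb away.

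The interferon pathway was described through 98 listed genes other than the 6 genes, of which 77 passed the filter. Of these 77, 40 were other effectors, proteins that act on the virus or alert other cells. The pathway induces them, as it does the 6 genes. The list was drawn up with results of these libraries known, so its direction is not independent evidence. In normal medium 55 of 77 were called higher in RA and 0 lower, with a median log2 difference of 0.88 against 0.01 over all genes. Under starvation 70 were called higher and 2 lower in RA, with a median of 2.70 against -0.01. In WT 7 were called higher and 64 lower with starvation, at a median of -1.92 against 0.00 over all genes, and in RA 41 were called higher and 15 lower, at 0.25 against 0.01. The interaction was called higher in 62 and lower in 2, at a median of 1.94 against -0.01. Over all genes 6.68% were called higher and 2.95% lower in RA in normal medium, and 30.8% and 32.1% under starvation. With starvation 39.3% of all genes were called higher and 39.2% lower in WT, and 35% and 33.7% in RA. The interaction was called higher in 24.5% of all genes and lower in 26.1%. Of the 77 genes, 3 passed the filter only through RA samples. Among the 74 that also passed in WT, 52 were called higher in RA in normal medium and 67 under starvation. The interaction was called higher in 61 of them. The effectors held 40 of the 55 genes called higher in RA in normal medium and 38 of the 62 with a higher interaction. By role the median interaction ran from 0.19 in the receptors and kinases to 2.57 in the effectors.

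Among 21 ligands, only Ifnb1 and Ifna4 passed the filter. Ifnb1, the interferon that fibroblasts make first, was at 0.739 and 0.726 in WT in normal medium, 0.210 and 0.219 once WT was starved, 2.07 and 2.29 in RA in normal medium, and 4.58 and 3.63 in starved RA. Its order of groups was that of the 6 genes, at a level near 1 and from no more than 234 reads in any sample. Both genes passed the filter only through RA samples, so their differences between the lines are given without a p-value. For Ifnb1 the difference of RA minus WT was 0.87 (SE 0.13) in normal medium and 2.07 (SE 0.13) under starvation on the log2 scale, and the interaction was 1.19 (SE 0.19). The log2(value + 1) scale understates the change of values as low as these. For Ifna4 the differences were 0.71 in normal medium and 0.97 under starvation (SE 0.14). Ifng, Ifnk, Ifnl2, Ifnl3, Ifna12 and Ifna16 had 0 reads in all samples.

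Of 8 tested receptors and kinases, 0 were called in normal medium. Under starvation 5 were called higher in RA, of which Ifngr1 lost its call under 9 alternatives. Over all genes 6.68% were called higher and 2.95% lower in RA in normal medium, and 30.8% and 32.1% under starvation. Ifnar1, a chain of the interferon alpha and beta receptor, was at 48.8 and 47.7 in WT and 48.7 and 46.8 in RA in normal medium, and at 53.4 and 51.9 in starved WT and 51.1 and 51.7 in starved RA. Its interaction of -0.02 (SE 0.067) was not called, nor was that of the kinase Tyk2 at -0.07 (SE 0.10). The largest interactions of this role were 0.73 for Ifngr2, a chain of the interferon gamma receptor, and 0.65 for the kinase Jak2 (limma adjusted p = 5.99e-06 and 1.64e-05).

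All 8 tested transcription factors were called higher in starved RA than in starved WT, against 30.8% of all genes. All 8 fell with starvation in WT, against 39.2% of all genes. In RA 3 rose and 2 fell, against 35% and 33.7% of all genes. The call of Irf3 in starved RA was lost under 1 alternative, and that of Irf2 for starvation in RA under 2. Irf7, the inducer of interferon alpha genes, had the largest interaction of this role, 3.64 (SE 0.086, limma adjusted p = 3.05e-15). The lowest were Irf3 at 0.24 (limma adjusted p = 0.0569) and Irf5 at 0.34 (limma adjusted p = 0.00157). Irf5 shares 411 exon bases, 14.1% of its exons, with Tnpo3 on the other strand, so its level is uncertain.

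Of 13 genes that sense nucleic acid or relay that signal, 11 were called higher and 2 lower in starved RA than in starved WT. Over all genes 30.8% were called higher and 32.1% lower in this comparison. The call of Mavs was lost under 5 alternatives. The RNA sensors Ddx58 and Dhx58 had the largest interactions, 2.91 and 2.86 (limma adjusted p = 2.16e-15 and 6.02e-11). Ticam1, the adaptor of Tlr3, and the kinase Tbk1 moved the other way, with interactions of -0.73 and -0.32 (limma adjusted p = 1.43e-05 and 0.000419). Of 6 feedback inhibitors 4 were called higher in starved RA and 0 lower, against 30.8% and 32.1% of all genes. Usp18, which restrains the receptor and removes Isg15 from proteins, had an interaction of 3.56 (limma adjusted p = 2.3e-17), and Socs1, an inhibitor of the Jak kinases, one of 0.85 (limma adjusted p = 0.000129). Those of Pias1 and Ptpn6 were -0.03 and 0.15 and were not called.

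The other effectors, the proteins that act on the virus or alert other cells, were the largest role. All 40 were called higher in RA in both media, against 6.68% of all genes in normal medium and 30.8% under starvation. Of these calls, 1 in normal medium was lost under 2 alternatives. With starvation 38 fell in WT and 0 rose, against 39.2% and 39.3% of all genes. In RA 27 rose and 6 fell, against 35% and 33.7% of all genes. The interaction was called higher in 38 of 40, against 24.5% of all genes, at a median of 2.57. Its calls in Isg20 and Psmb9 were lost under 6 alternatives and 1. The calls of Parp14, Daxx, Iigp1 and Isg20 for starvation in RA were lost under 7, 6, 5 and 2. The largest belonged to Oasl2, an oligoadenylate synthetase-like protein, at 4.71 (SE 0.069, limma adjusted p = 1.01e-17) and to Ifi44 at 3.92 (SE 0.058, limma adjusted p = 1.01e-17). Oasl2 was at 54.4 and 55.2 in WT in normal medium, 3.90 and 3.73 once WT was starved, 157 and 170.3 in RA in normal medium, and 363 and 377 in starved RA. The interaction was not called in Daxx, a chromatin protein of promyelocytic leukaemia bodies, at -0.16 (limma adjusted p = 0.0858).

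Genes of the processes in which the 6 proteins act were also counted. Of 8 genes of cap methylation and cap binding, which set or read the marks that Ifit1 senses, 2 were called higher and 3 lower in starved RA than in starved WT, and the interaction was called higher in 0 and lower in 3. Over all genes 30.8% were called higher and 32.1% lower in the first comparison, and 24.5% and 26.1% in the second. In starved RA against starved WT the calls of Eif3c and Fam103a1 were lost under 8 and 4 alternatives. Cmtr1, the methyltransferase that places the 2′-O-methyl group, had an interaction of 0.10 (limma adjusted p = 0.156) and was called higher in RA in both media, by 0.35 (limma adjusted p = 2.57e-05) and 0.45 (limma adjusted p = 6.49e-08). It shares 4584 exon bases with Ccdc167 on the other strand and 3390 with Gm28043 on its own, so its level is uncertain. Cmtr2, which methylates the next nucleotide, had the lowest interaction, -0.60 (limma adjusted p = 3.53e-05), Fam103a1, the activator of the cap methyltransferase Rnmt, had -0.38 (limma adjusted p = 0.0114), lost under 4 alternatives, and Eif3c had 0.04 and was not called.

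Of 12 genes of CTP supply and mitochondrial nucleotide kinases, 4 were called higher and 4 lower in starved RA, and the interaction was called higher in 3 and lower in 4. These shares are near the 30.8% and 32.1%, and the 24.5% and 26.1%, of all genes, and the interaction call of Cmpk1 was lost under 7 alternatives. Ctps2, a CTP synthase, was at 25.2 and 26.9 in WT in normal medium, 9.09 and 9.21 once WT was starved, 29.4 and 27.6 in RA in normal medium, and 22.8 and 18.5 in starved RA. Its interaction was 0.96 (limma adjusted p = 5.8e-06), but unlike Cmpk2 it fell with starvation in RA too, by 0.45 on the log2 scale (limma adjusted p = 0.000176). Dguok, the mitochondrial deoxyguanosine kinase, had an interaction of 0.43 (limma adjusted p = 0.00256). The lowest were Nme2 at -0.56 (limma adjusted p = 1.99e-07), which shares 573 exon bases with Gm20390, and Dtymk at -0.47 (limma adjusted p = 4.67e-05).

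Of 12 genes that load iron-sulfur clusters or are known partners of viperin, 4 were called higher and 4 lower in starved RA, and the interaction was called higher in 2 and lower in 4. These shares too are near those of all genes, 30.8% and 32.1%, and 24.5% and 26.1%. In the first comparison the calls of Mms19, Traf6 and Hadhb were lost under 10, 4 and 1 alternatives, and in the interaction those of Traf6 and Nubp2 under 8 and 2. Fdps, the farnesyl diphosphate synthase that viperin binds, was at 222 and 227 in WT in normal medium, 46.1 and 48.2 once WT was starved, 209 and 223 in RA in normal medium, and 80.8 and 83.0 in starved RA. Fdps fell in both lines and its interaction was 0.84 (SE 0.061, limma adjusted p = 7.19e-09). It shares 1124 exon bases with Gm43738 on the same strand. Nubp1, which shares 1341 exon bases with Tvp23a on the other strand, had 0.35 (limma adjusted p = 0.00067), and Fam96b and Ciao1, of the complex that hands clusters to their target proteins, had -0.49 (limma adjusted p = 2.35e-05) and -0.37 (limma adjusted p = 0.00212).

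**Figure D5:**
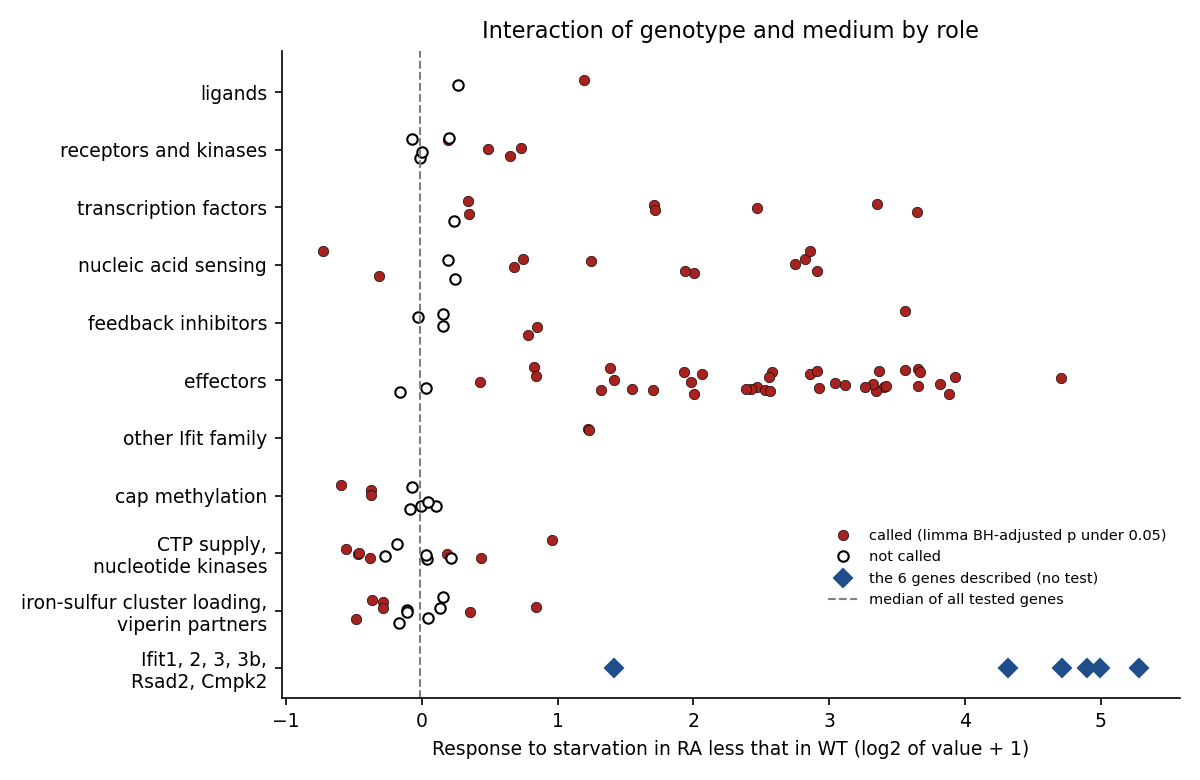
Response to starvation in RA less that in WT, on the log2(value + 1) scale, for the tested genes of each role and, in the bottom row, for the 6 genes described. Red points were called by limma at an adjusted p under 0.05, open points were not, blue diamonds carry no test, and the dashed line is the median of all tested genes. The diamonds lie between 1.42 and 5.28, and the effectors reach 4.71.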

How the data were processed

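The libraries were polyA-selected with the TruSeq RNA v2 kit and sequenced as paired ends on an Illumina HiSeq, and reads were mapped with TopHat2 (version 2.0.9) to mm9 per the submitters' processing notes, which also name bedtools and edgeR. The counter, annotation, handling of strand and filters are not given in the sources used here. The authors deposited 1 table whose values are a signal, a gene's reads over a scaled library size, in CPM. The minus and plus of the column names were taken for normal and glucose-free medium, as the study marks its conditions. The columns summed to between 965845 and 1029723, not to 1 common total, and 100% of the nonzero values came out as whole reads within 0.02, so reads were recovered, and counting error is the only error they cover. Between 78.2% and 80.5% of low read counts were even, so these reads may not all be independent.

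Genes that reached 1 CPM in 2 or more samples were tested with limma (version 3.58.1, R version 4.3.3) on log2(value + 1). The fit used group means over 8 samples, a trend of variance with level, and p-values that were 2-sided and adjusted by Benjamini-Hochberg over the 16232 genes of each contrast, and was tested on simulated data. The plan assumed CPM, and the same test was kept. The table held 26 names turned into dates, which were tested but not named. Alternatives are given in the closing section and included DESeq2 (version 1.42.0) and edgeR (version 4.0.16), both run on the recovered reads. The 6 genes, the gene lists and the tests were chosen with earlier results of these data known. Named besides the 6 genes were the 3 protein-coding neighbours on each side, the genes most alike in profile, and for each role both ends of the interaction, with 2 genes each, of which some are not reported here. Windows around start sites came from RefSeq on GRCm38.p6, and positions, exon lengths and overlaps from GENCODE M21 on GRCm38.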

Additional observations from a re-analysis of the deposited data

Results flagged for a closer look

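For each of the 6 genes both starved WT samples lay below both WT samples in normal medium, and both starved RA samples lay above both RA samples in normal medium, although the difference in RA was only 0.09 (SE 0.047) for Ifit2 on the log2 scale. The response in RA less that in WT was 4.90 for Ifit1, 1.42 for Ifit2, 5.28 for Ifit3, 5.0 for Ifit3b, 4.72 for Rsad2 and 4.32 for Cmpk2 on the log2 scale. The difference was not tested for these genes, because they were chosen from these values.

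Among the other genes of the interferon pathway, the interaction term of limma was called higher in 62 and lower in 2 of 77. Of these genes Ifnb1 passed the filter on low values only through RA. Over all genes the interaction term was called higher in 24.5% and lower in 26.1%. It was 1.19 for Ifnb1, 0.73 for Ifngr2, 0.65 for Jak2, 3.64 for Irf7, 0.34 for Irf5, 2.91 for Ddx58, 2.86 for Dhx58, 3.56 for Usp18, 0.85 for Socs1, 4.71 for Oasl2 and 3.92 for Ifi44, and -0.73 for Ticam1 and -0.32 for Tbk1. In the family and in the partner genes it was 1.22 for Ifit1bl1, 1.23 for Ifit1bl2, -0.60 for Cmtr2, -0.38 for Fam103a1, 0.96 for Ctps2, 0.43 for Dguok, -0.56 for Nme2, -0.47 for Dtymk, 0.84 for Fdps, 0.35 for Nubp1, -0.49 for Fam96b and -0.37 for Ciao1. Among the neighbours on the chromosome it was 1.25 for Fas, -0.23 for Lipa, 0.47 for Kif20b, -0.78 for Id2, 0.80 for Rnf144a and 0.50 for Sox11. The cause of these differences was not tested.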

How the results depend on the processing

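Each log2 difference of the 6 genes was recomputed under 18 alternatives. Of 540 recomputed values over 30 differences, 411 moved by less than the spread between replicates, 129 moved by more and 0 changed sign. Some alternatives could not move a difference, and they count among the 411. These are the changes of filter, the replicate block, and leaving out a sample of a group that the difference does not use. The pseudocount moved the genes with few reads in starved WT the most. For RA against WT under starvation, Cmpk2 lay between 4.26 with a pseudocount of 5 and 7.55 with edgeR on recovered reads, and Ifit2 between 1.54 and 1.77. Depth limits these genes in starved WT, where Cmpk2 rested on 26 and 30 reads that may not all be independent. Folds against that group are therefore imprecise.

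Of the 77 pathway genes, the number called in normal medium was 30 with a change of at least 2-fold, against 55. With that change 47 were called for starvation in WT, against 71, and 9 for starvation in RA, against 56, and the last was 33 at an adjusted p under 1e-05. These settings are stricter by construction. All other alternatives stayed within 1.5 times the main counts. Leaving out each sample in turn gave 53 to 55 calls in normal medium, 70 to 72 under starvation, 68 to 71 for starvation in WT, 51 to 56 for starvation in RA and 63 to 65 for the interaction.

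Over all genes, the 1563 calls in normal medium were 650 without a filter, 590 without the trend, 559 without WT normal medium replicate 1, 832 without WT normal medium replicate 2 and 933 without RA normal medium replicate 2, and the cause was not tested. Same-numbered samples deviated together with correlations from -0.0076 to 0.157 over 6 pairs of groups, 2 of them over 0.1. With 2 replicates per group this cannot show whether same-numbered samples share more than a number. With the replicate number as a block the pathway calls were 55, 72, 71, 56 and 66 in the 5 comparisons, against 55, 72, 71, 56 and 64. Over all genes the block gave more calls in each comparison, with 2059 against 1563 in normal medium and 8578 against 8207 for the interaction.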
